A study of Zea mays with 11 samples.

Results

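The MIR159 genes of maize were followed in anthers of the *pam1* mutant and of the wild-type inbred line A344. They were taken as the rows of the gene count table whose ID starts with zma-MIR159, which gave 10 of 44474 rows. Of these, 6 rows (MIR159a, b, f, g, j and k) had at least 1 count in some library and 4 rows (MIR159c, d, e and h) had none. The rows zma-MIR159b, zma-MIR159g and zma-MIR159k held 385 of the 438 MIR159 counts (87.9%). PAM1 is a protein with an RNA recognition motif, and the RNA-seq part of the study compared the anther transcriptome of the mutant with that of the wild type. Anthers at prophase I of meiosis gave 3 libraries labelled *pam1* mutant and 3 labelled wild type, of line A344, from total RNA with a directional library kit. The labels give the mutant's line only as *pam1*, so whether it is in the A344 background, and which allele it carries, is not stated. They also do not say whether replicates came from separate plants. The p-values therefore reflect the spread between these libraries, and part of it may be technical.

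miR159 is a conserved plant microRNA (miRNA). Its genes are transcribed into longer primary transcripts that fold into hairpins, from which a Dicer-like enzyme releases the mature miRNA. Family members give the same or nearly the same mature miRNA, which lowers mRNAs of GAMYB-type MYB transcription factors, regulators known from anther and tapetum development in rice and Arabidopsis. The counts here are reads of total RNA at the rows of these genes, and they measure neither the mature miRNA nor its activity.

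Library totals were 1918457 to 2595247 counts, and levels are given as CPM, counts scaled so that all libraries have the same total. Every MIR159 row was thinly covered, with 4 to 45 counts per library in zma-MIR159b, zma-MIR159g and zma-MIR159k. Across all tested rows, log2 CPM of *pam1* replicate 3 correlated with the A344 libraries at 0.896 to 0.912, against 0.866 to 0.885 for *pam1* replicates 1 and 2 (across rows, which are not independent replicates). The row of *pam1* itself was not looked at, because the files do not pair the Zm00001d identifiers with gene names. For the same reason, none of 26 listed genes for GAMYB-type targets, miRNA biogenesis and anther small RNAs, and none of 22 listed anther and leaf markers, was matched to a row, so the labelled tissue and the genes downstream of miR159 were not examined.

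MIR159 reads were more frequent in *pam1* anthers, and MIR159g and MIR159b carried the difference that passed the test. Other miRNA rows, MIR2275c, MIR528a and MIR408b, were also called higher, as were 8.18% of all tested rows. Like the tested MIR159 rows, these miRNA rows entered the test through their *pam1* level. MIR159g stood at 3.44 times its A344 mean level and MIR159b at 2.81 times. Neither row had any overlap between the groups, with every *pam1* library above every A344 library, as in 17.3% of all tested rows. MIR159k was higher on average but varied 6.74-fold between A344 libraries, and MIR159j gave no difference that could be resolved at its depth.

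MIR159g had 30, 34 and 22 counts in *pam1* replicates 1 to 3, or 14.7, 13.1 and 10.98 CPM. It had 8, 6 and 11 counts in A344 replicates 1 to 3, or 3.30, 3.13 and 4.85 CPM. Every *pam1* library lay above every A344 library, and the lowest *pam1* value was more than double the highest A344 value. The mean level was 12.9 ± 1.88 CPM in the mutant against 3.76 ± 0.945 CPM in the wild type (SD, n = 3 each). The log2 fold change was 1.74 ± 0.31 (SE), with an adjusted p of 0.00167 (quasi-likelihood test of edgeR, Benjamini-Hochberg adjusted over all 18491 tested rows).

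MIR159b had 28, 26 and 15 counts in *pam1* replicates 1 to 3, or 13.8, 10.02 and 7.49 CPM. In A344 replicates 1 to 3 it had 11, 5 and 9 counts, or 4.54, 2.61 and 3.96 CPM. The groups did not overlap here either, with *pam1* replicate 3 the lowest of the mutant libraries. The mean level was 10.4 ± 3.15 CPM in the mutant against 3.70 ± 0.994 CPM in the wild type (SD, n = 3 each), and the log2 fold change was 1.43 ± 0.35 (SE; edgeR adjusted p = 0.0132). The call was lost without *pam1* replicate 1 (log2 1.201, edgeR adjusted p = 0.0778) and with DESeq2 (log2 1.43, adjusted p = 0.0797).

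MIR159k had 45, 36 and 36 counts in *pam1* replicates 1 to 3, or 22.1, 13.9 and 18.0 CPM. In A344 replicates 1 to 3 it had 34, 4 and 25 counts, or 14.0, 2.09 and 11.01 CPM. The groups overlapped, because A344 replicate 1 lay just above *pam1* replicate 2, while A344 replicate 2 lay far below all the others. The mean level was 18.0 ± 4.12 CPM in the mutant against 9.05 ± 6.22 CPM in the wild type (SD, n = 3 each). The log2 fold change of 0.90 ± 0.39 (SE) did not pass the test (edgeR adjusted p = 0.153). With the replicate number as a block it was 1.01 ± 0.30 (SE) and passed (edgeR adjusted p = 0.0291). With no filter on low counts it was 0.88 ± 0.27 (SE; edgeR adjusted p = 0.0128), a pass that came with a smaller SE and not a larger change. With a filter of at least 1 CPM in 3 libraries it was 0.88 ± 0.38 (SE) and did not pass (edgeR adjusted p = 0.149).

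**Figure D1:**
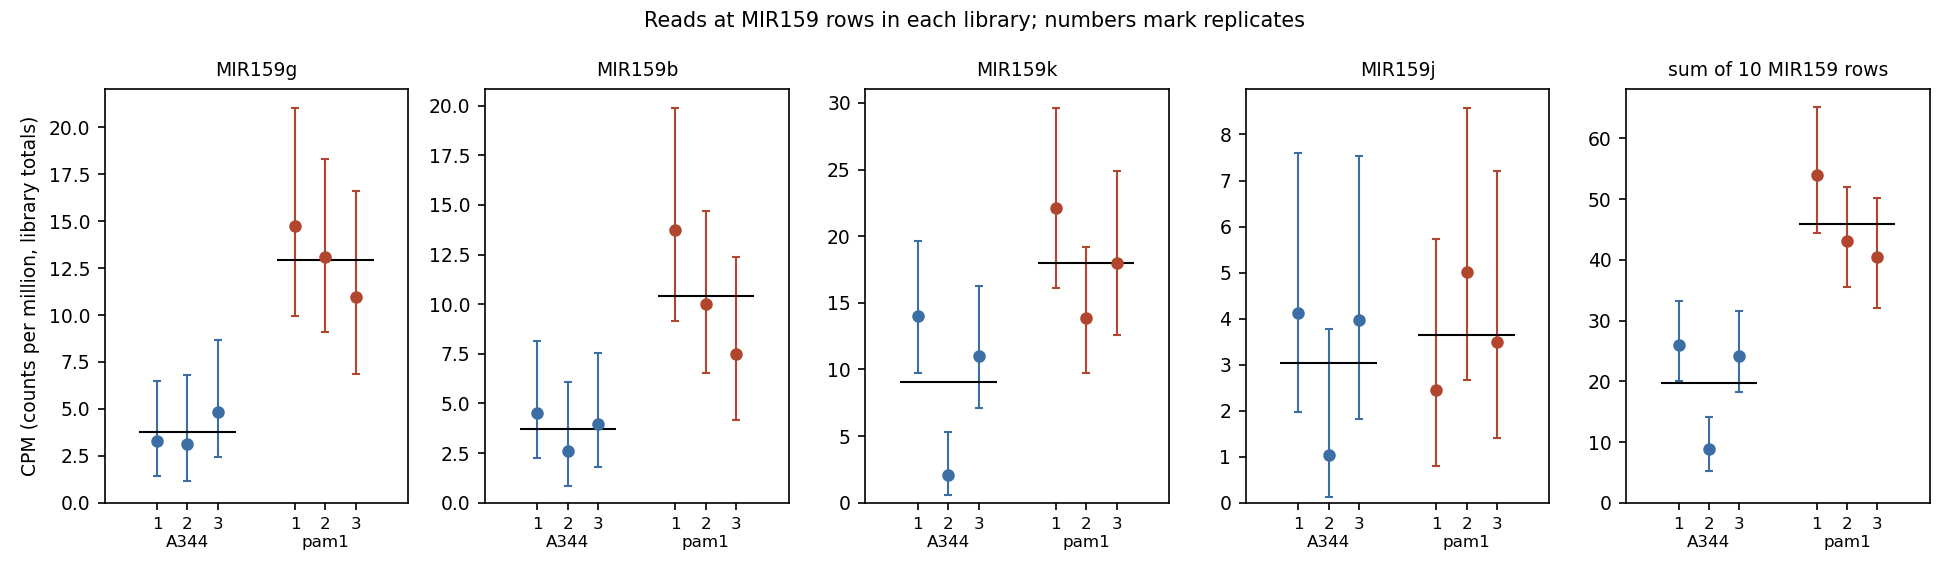
CPM of MIR159g, MIR159b, MIR159k, MIR159j and the sum of the 10 MIR159 rows in each library, with replicates 1 to 3 of A344 in blue and of *pam1* in red. Bars are exact Poisson 95% intervals of the count and cover counting error only, and black lines are group means; MIR159g, MIR159b and the sum do not overlap between groups, while MIR159k of A344 replicate 2 (2.09 CPM) lies apart from A344 replicates 1 and 3 (14.0 and 11.01 CPM).

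Read against the whole table, 2 of the 10 MIR159 rows, of which only 3 were tested, were called higher and none lower at an adjusted p under 0.05. Over all tested rows, edgeR called 8.18% higher in *pam1*. Every *pam1* library was above every A344 library in those 2 rows, which held for 17.3% of tested rows and 14.4% of rows with any count. Of the 10 rows, 3 passed the filter on low counts, which asks for about 4.65 CPM in at least 3 libraries. MIR159b reached that limit in all 3 *pam1* libraries and in 0 A344 libraries, MIR159g in 3 and 1, and MIR159k in 3 and 2. All 3 rows thus entered the test through their *pam1* level, since none had enough A344 libraries past the limit. For MIR159g and MIR159b, being called is not separate from having passed. The number of MIR159 rows called higher was 3 with no low-count filter, where 6.24% of all rows fitted were, and 3 with the replicate number as a block (9.71%). It was 1 with DESeq2 (4.27%) and 1 at an adjusted p under 0.01 (4.52%), and that row was MIR159g both times.

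MIR159j, the other row of some depth, had 5, 13 and 7 counts in *pam1* replicates 1 to 3, or 2.46, 5.01 and 3.50 CPM. In A344 replicates 1 to 3 it had 10, 2 and 9 counts, or 4.13, 1.04 and 3.96 CPM. The groups overlapped almost fully, and A344 replicate 2 was again the lowest library. The row was too low for the filter. Fitted with no low-count filter, its log2 fold change was 0.21 ± 0.49 (SE; edgeR adjusted p = 0.833). Its ratio of summed counts was 1.19 with an exact conditional 95% interval of 0.637 to 2.23, so a doubling was not excluded at this depth.

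The remaining rows were near or at 0. MIR159a had 3 counts in *pam1* and 1 in A344, and MIR159f had 3 and 0. MIR159c, d, e and h had 0 of the 13242559 counts of the 6 libraries, which allows a level of up to 0.227 CPM (3 counts) over the 6 libraries pooled. That limit covers only reads assigned to the row, since how reads of near-identical copies were divided is unknown. In the RefSeq annotation of Zm-B73-REFERENCE-NAM-5.0, a long non-coding RNA gene overlaps MIR159a, so reads of that row cannot be assigned to the hairpin's own transcript.

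The sum over the 10 rows does not depend on how reads shared by near-identical copies were divided within the family. It would lack such reads if they were left uncounted, which is unknown. In *pam1* replicates 1 to 3 it was 110, 112 and 81 counts, or 54.1, 43.2 and 40.4 CPM. In A344 replicates 1 to 3 it was 63, 17 and 55 counts, or 26.0, 8.86 and 24.2 CPM. All *pam1* libraries were above all A344 libraries, and A344 replicate 2 lay lowest by a wide margin. The ratio of *pam1* to A344 was 2.24 (exact conditional 95% interval 1.82 to 2.76). It was 1.82 without A344 replicate 2 and 2.57 without MIR159k. The interval, like those of the ratios below, covers counting error only and not the spread between libraries. The variance of the summed MIR159 counts was 8.94 times that of counting alone in A344 and 2.34 times in *pam1*. The other 144 miRNA gene rows were also higher in sum. They summed to 75.2, 77.4 and 67.4 CPM in the 3 mutant libraries, taken in replicate order, and to 44.6, 29.7 and 36.6 CPM in the 3 A344 libraries. Their ratio of summed counts was 1.96 (exact conditional 95% interval 1.68 to 2.30). Without MIR2275c, whose row was close to 0 in A344, that ratio was 1.67 (1.42 to 1.96). MIR2275c (log2 fold change 4.99, edgeR adjusted p = 6.3e-05), MIR528a (1.83, edgeR adjusted p = 0.00369) and MIR408b (1.43, edgeR adjusted p = 0.0243) were called higher. MIR167g, the only other miRNA row in the fit outside MIR159, was not (0.04, edgeR adjusted p = 0.956). MIR2275c, MIR528a and MIR408b passed the low-count filter through their *pam1* level, as the MIR159 rows did. MIR167g, at 5.21 to 9.09 CPM, was past the limit of the filter in every library. Of all miRNA gene counts, MIR159 took 41.8, 35.8 and 37.5% in the *pam1* libraries. It took 36.8, 23.0 and 39.9% in the A344 libraries, again in replicate order. The shares of the groups overlapped, and A344 replicate 2 had the lowest. Anthers hold several cell types, and more RNA per cell or more cells of a type cannot be told apart in these bulk libraries.

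The spread among A344 replicates, taken against counting error, was wider for MIR159k than for MIR159g and MIR159b. For MIR159g and MIR159b, the variance of the A344 counts was 0.521 and 0.546 times that of counting alone, so the libraries differed by no more than counting error. For MIR159k the same measure was 8.43 in A344 and 2.21 in *pam1*. The median over tested rows was 1.52 in A344 and 1.06 in *pam1*, and 7.73% of tested rows had a higher A344 value than MIR159k. For a given relative spread this measure grows with the counts. MIR159g and MIR159b had 25 counts each in A344, against 63 for MIR159k. The ratio of A344 replicate 2 to A344 replicate 3 was 0.645 (0.196 to 1.90) for MIR159g and 0.657 (0.173 to 2.18) for MIR159b. For MIR159k it was 0.189 (0.0479 to 0.548). These exact conditional 95% intervals overlap, and a difference in spread between the rows was not tested.

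A344 replicate 2 set the spread of MIR159k. Its MIR159k level was 6.74-fold below that of A344 replicate 1, with an exact conditional 95% interval of 2.402 to 26.1. A344 replicates 1 and 3 differed by a ratio of 1.28 (0.739 to 2.23), within counting error. Relative to the mean of A344 replicates 1 and 3, A344 replicate 2 stood at 16.6% for MIR159k and 25.8% for MIR159j. It stood at 61.3% for MIR159b and 76.7% for MIR159g. The median over tested rows was 96.2%, and 65 of 18491 tested rows (0.352%) were as low as or lower than MIR159k by this measure. The library was lowest of the A344 libraries for the other miRNA rows as well, as given above, and the part of this in the MIR159k result was not tested. Without A344 replicate 2, the log2 fold change of MIR159k was 0.48 (edgeR adjusted p = 0.266), and without A344 replicate 1 it was 1.33 (edgeR adjusted p = 0.0632).

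**Figure D2:**
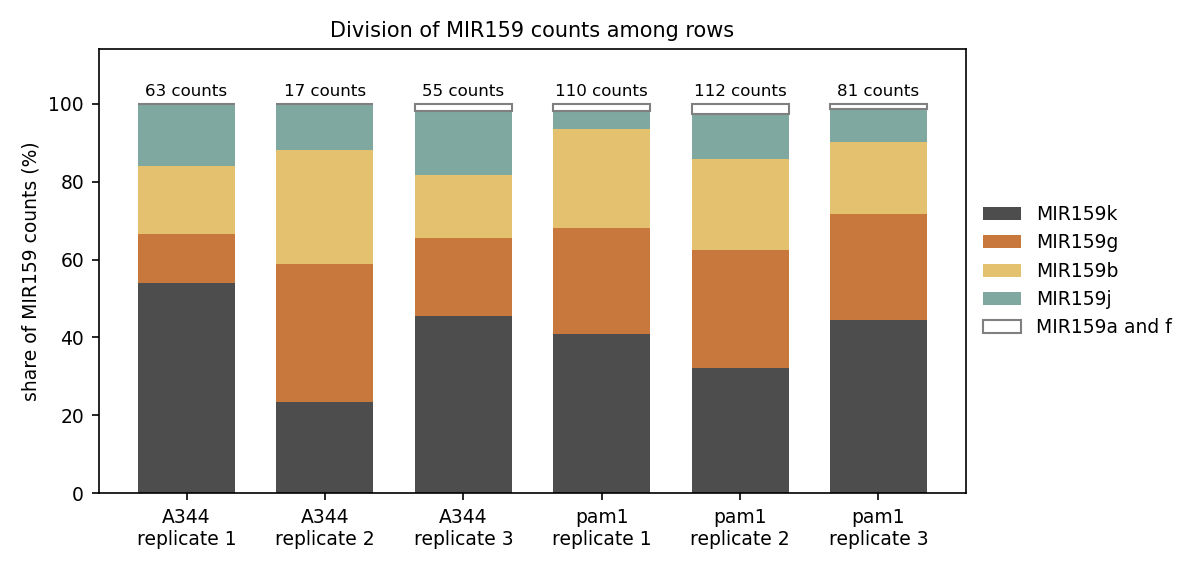
Percentage of each library's MIR159 counts that fell in each row, for A344 replicates 1 to 3 and *pam1* replicates 1 to 3, with the number of MIR159 counts above each bar. MIR159k took 23.5% of 17 counts in A344 replicate 2, and 32.1 to 54.0% in the other libraries.

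The division of reads among the rows was compared between the groups. MIR159k took 117 of 303 MIR159 counts in *pam1* (38.6%) and 63 of 135 in A344 (46.7%), while MIR159g took 86 (28.4%) and 25 (18.5%). These are shares of reads and not of transcripts, since no source used here gives the lengths of the counted rows. Within a library, the ratio of MIR159k to MIR159g counts was 1.50, 1.06 and 1.64 in *pam1* replicates 1 to 3. It was 4.25, 0.667 and 2.27 in A344 replicates 1 to 3, with A344 replicates 1 and 3 above and A344 replicate 2 below all *pam1* libraries. The mean log2 ratio was 0.45 ± 0.33 in the mutant and 0.88 ± 1.30 in the wild type (SD, n = 3 each), a difference of −0.43 (exact permutation test, two-sided p = 0.7, where 0.1 is the smallest possible). The difference was 0.14 without A344 replicate 1 and −1.13 without A344 replicate 2. For MIR159k to MIR159b the difference was −0.12 (exact permutation p = 0.9), and for MIR159g to MIR159b it was 0.31 (exact permutation p = 0.4). Adjusted over the 3 ratios, each exact permutation p was 0.9. With 3 libraries a group this test cannot reach 0.05, so it does not show whether MIR159k, which did not pass the edgeR test, responded differently from MIR159g, which did.

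**Figure D3:**
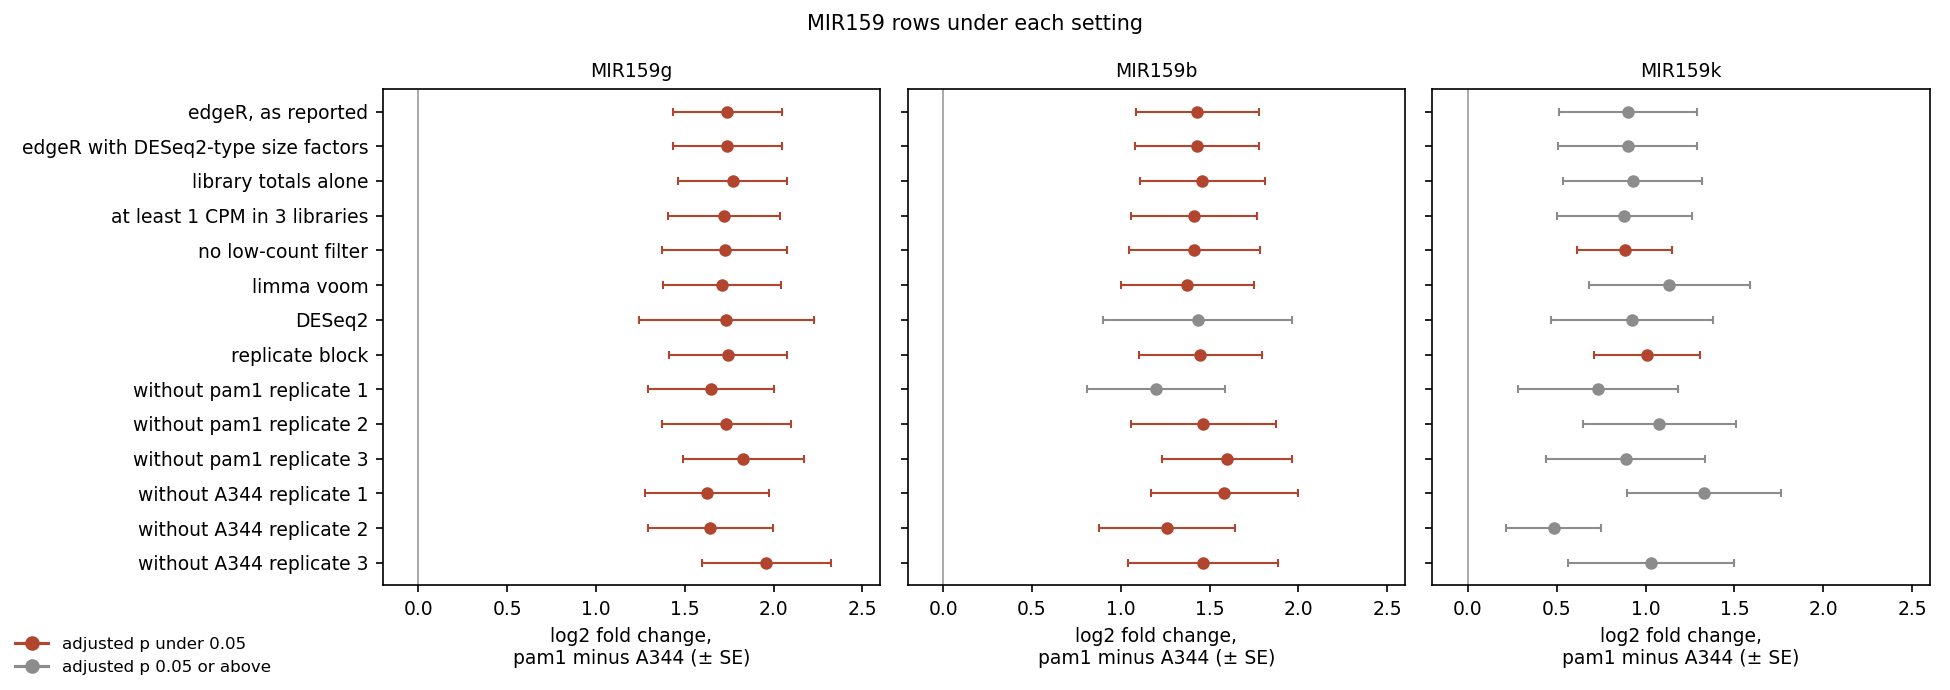
Log2 fold change (*pam1* minus A344, ± SE) of MIR159g, MIR159b and MIR159k under each setting, with red points at an adjusted p under 0.05 and grey points at or above it. MIR159g is called in every setting shown (1.62 to 1.96), MIR159b loses its call with DESeq2 and without *pam1* replicate 1, and MIR159k moves between 0.48 and 1.33.

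MIR159a, h, g, j, k and b occupy 6 consecutive rows of the count table, and hold all MIR159 counts but the 3 of MIR159f. The RefSeq annotation of Zm-B73-REFERENCE-NAM-5.0 holds 5 of these 6 (not MIR159g) on 1 chromosome in the same order, with 0 other genes starting between MIR159a and MIR159b. Most rows next to the cluster were not called. Of the 10 tested rows on each side, 2 were called by edgeR, against 14.9% of all tested rows, and the median log2 fold change of the 20 was −0.01, as was that of all tested rows. The 18 rows not called had log2 fold changes of −0.51 to 0.67.

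The called neighbours were Zm00001d008491, which fell by 0.46 on the log2 scale (edgeR adjusted p = 0.0329), and Zm00001d008509, with 1 row between it and MIR159b. Neither has a gene name in the files. The call of Zm00001d008491 was lost without *pam1* replicate 1 or 2 and without A344 replicate 1 or 3, while Zm00001d008509 was called in every setting run. Zm00001d008495, not called in the fit without the block (log2 fold change 0.67, edgeR adjusted p = 0.102), passed with the replicate number as a block (0.70, edgeR adjusted p = 0.0375) and without A344 replicate 3 (0.97, edgeR adjusted p = 0.0318). With the block 3 of the 20 neighbours were called, against 18.1% of all tested rows. These neighbours are singled out here after their values were seen. Zm00001d008509 had 57, 63 and 33 counts in *pam1* replicates 1 to 3 and 0 in each A344 library. Its level in *pam1* was 22.9 ± 5.88 CPM (SD, n = 3; edgeR adjusted p = 1.42e-05). That was 50.8-fold above a floor of 3 counts over the 3 A344 libraries. The exact conditional 95% interval of the ratio, which covers counting error in both groups, started at 40.8. The cluster thus sits beside a row that was read in the mutant libraries only. Sequence differences between the lines at this place and loss of PAM1 cannot be told apart as the source of either difference.

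**Figure D4:**
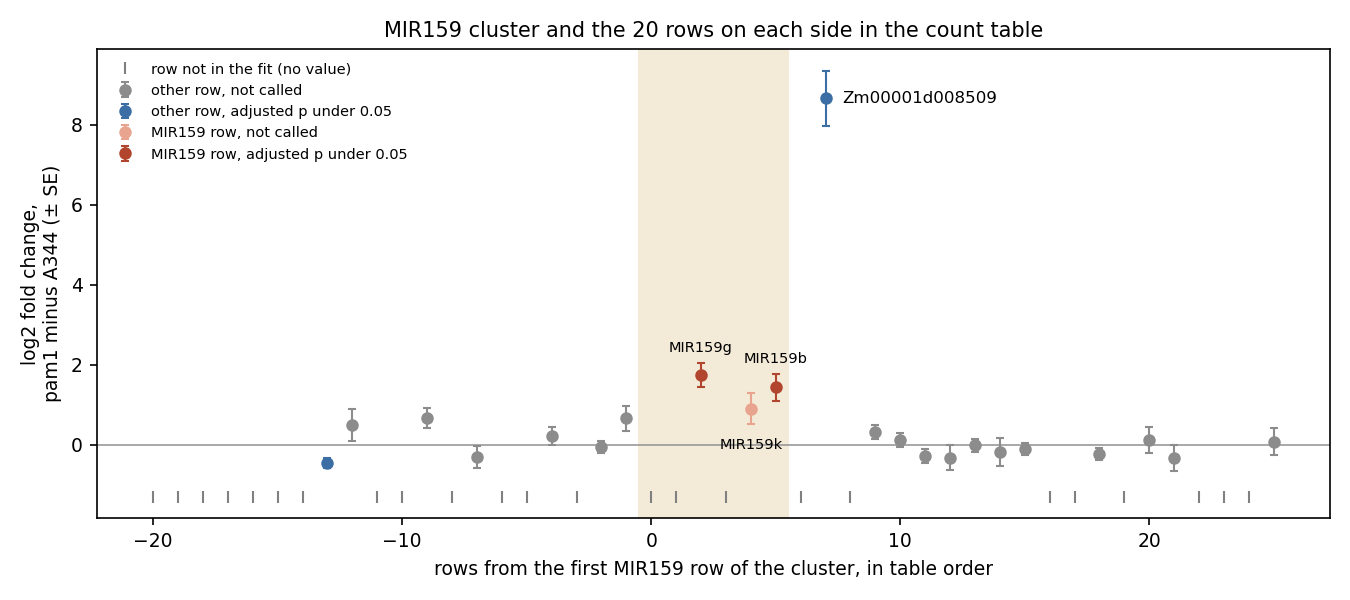
Log2 fold change (*pam1* minus A344, ± SE) of rows in the order of the count table, from 20 rows before to 20 rows after the MIR159 cluster (shaded). Rows without a fitted value are ticks at the bottom; MIR159g (1.74), MIR159b (1.43) and MIR159k (0.90) stand above neighbours that mostly lie near 0, and Zm00001d008509 stands at 8.66, a fitted value that depends on the prior count because A344 has no count.

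The authors' deposited table, whose log2 values are A344 over *pam1*, gives −1.73 for MIR159g (adjusted p = 0.00972) and −1.43 for MIR159b (adjusted p = 0.0797). For MIR159k the authors' deposited table gives −0.92 with an adjusted p of 0.269, and for MIR159j −0.21 with an adjusted p of 0.950. Only MIR159g of these 4 rows passed there.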

How the data were processed

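The authors deposited whole-number counts per row for 6 libraries, per the file headers, and a comparison table with a mean signal per row, log2 fold changes with standard errors, a Wald score and p-values. The submitters' processing notes name STAR, DESeq2, Bowtie2 2.4.5 and MACS2 without roles. No source used here gives how reads were counted, with which strand rule, or what was done about multiple matches, so how reads of near-identical MIR159 copies were divided among rows is unknown. Columns were matched to samples by name, the mutant's being headed PAML. The RIP peak list was not used, since positions of the MIR159 genes on its build were not available in the sources used. Hairpin and mature sequences were not used here.

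All rows were fitted with edgeR 4.0.16 in R 4.3.3 (TMM, default filterByExpr with a minimum count of 10, quasi-likelihood test). Tests were two-sided, differences are *pam1* minus A344, and the threshold was 0.05 on Benjamini-Hochberg adjusted p. Alternatives used DESeq2 1.42.0, limma 3.58.1, other scalings and filters, each library left out, and the replicate number as a block. Same-numbered libraries deviated together across rows (r = 0.134, 0.118 and 0.128 for replicates 1 to 3), which the labels do not explain, and blocked values are given where they change a call. Variance over counting is the Poisson dispersion index of the counts. Intervals are exact, at 95%, and cover counting error only. Within-library log2 ratios used a pseudocount of 0.5 counts. No pair of libraries within a group was a duplicate, with chi-square per degree of freedom of 1.99 to 5.42. The fit was tested on simulated data, with changes placed only in rows of higher mean counts than MIR159g and MIR159b. Recovery of a change at the depth of these rows was not tested. Other steps were run in Python 3.11.15 with pandas 2.3.3, scipy 1.17.1, numpy 2.4.6 and, for plots, matplotlib 3.10.9. The MIR159 rows and all lists were chosen with earlier results of these data known. Rows named are the MIR159 rows, the MIR319 rows, and the miRNA rows and table rows most like the MIR159 rows over the 6 libraries. The other miRNA rows in the fit, and neighbours added after their values were seen, are also named.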

Additional observations from a re-analysis of the deposited data

How the results depend on the processing

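MIR159g was called under each of 13 alternatives (log2 1.62 to 1.96). MIR159b kept its call in 11 of 13, losing it with DESeq2 (log2 1.43) and without *pam1* replicate 1 (1.201), and leaving out 1 library gave 1.201 to 1.598. MIR159k was not called in 11 of 13 and gained a call with no low-count filter (log2 0.88) and with the replicate block (1.01), and leaving out 1 library gave 0.48 to 1.33. The block changed no other call of the MIR159 rows tested. The number of rows called higher was 1 with DESeq2, 1 at an adjusted p under 0.01, and 1 to 2 with 1 library left out. The summed ratio was 1.82 to 2.66 over 9 alternatives. Without 1 library, the difference in log2 ratio ran from −1.13 to 0.14 for MIR159k to MIR159g (above 0 without A344 replicate 1) and from −0.71 to 0.22 for MIR159k to MIR159b (above 0 without *pam1* replicate 2 and without A344 replicate 1 or 3); the cause was not tested. The number of called neighbours was 3 with the replicate block, 1 without *pam1* replicate 1, *pam1* replicate 2 or A344 replicate 1, and 2 in the other settings. Without A344 replicate 3 it was also 2, with Zm00001d008495 called and Zm00001d008491 not. Depth limits MIR159j and the rows with 0 to 4 counts.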

Other observations

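MIR319, a miRNA family close to miR159 in sequence that targets TCP transcription factors, was nearly unread. Of its 4 rows, MIR319c had 2 counts, both in *pam1*, and MIR319a, b and d had 0. In the count table MIR159c lies 3 rows from MIR319b and MIR159d lies 2 rows from MIR319d, and these 4 rows had no count in any library.

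Among the 6 other miRNA rows with at least 20 counts, the pattern of MIR159g over the 6 libraries was most like that of MIR2275c (Pearson r = 0.983 of log2 CPM) and MIR528a (0.971). For MIR159b these were MIR528a (0.978) and MIR2275c (0.948). For MIR159k they were MIR399d (0.847) and MIR408b (0.797). MIR159g and MIR159b had an r of 0.942 with each other, against 0.674 and 0.788 with MIR159k. These values are descriptions, since the difference between the groups enters each of them, the libraries are shared and the counts are low.

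Over all tested rows, the summed MIR159 level was most like Zm00001d011877 (r = 0.994), which has no gene name in the files. That row had 21.1, 18.5 and 18.0 CPM in *pam1* replicates 1 to 3 and 15.7, 8.86 and 14.98 CPM in A344 replicates 1 to 3, and was not called (log2 fold change 0.50, edgeR adjusted p = 0.186). Zm00001d018472 was next (r = 0.994; log2 fold change 0.14, edgeR adjusted p = 0.632). In both rows A344 replicate 2 was the lowest library, as it was in the summed MIR159 level. The rows were picked for the highest r among 18488, so this likeness follows from the choice.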
